A study of Mus musculus with 12 samples.

Results

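Amino acids cross the plasma membrane and the lysosomal membrane on carrier proteins of several solute carrier (SLC) families, which differ in the ions they couple to and in the side chains they accept. In fat cells these carriers feed protein synthesis, glutamine and branched-chain amino acid metabolism and amino acid sensing by the mTORC1 kinase complex. The genes described here are the amino acid transporter families Slc1a, Slc3a, Slc6a, Slc7a, Slc36a, Slc38a and Slc43a, taken from the gene table by their symbols. The families were chosen with earlier results of these data known. The genes came to 60 of the table's 39248 rows, and 25 of the 60 had a mean of at least 0.5 FPKM (a read count scaled to transcript length and library size) over the 12 libraries, the floor for testing. For comparison, 17169 rows of the whole table reached that floor.

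The cells were 3T3-L1 adipocytes, a clonal mouse fibroblast line that turns into fat cells in culture, so the libraries share 1 genetic background and hold no other tissue cells. They were electroporated 2 days after differentiation, with 0.75 nmol of siRNA. The 6 control libraries received a control siRNA and the 6 knockdown libraries received 1 of 2 siRNAs against Zfp407 (a zinc finger protein gene), with 3 electroporations for each of these siRNAs. The knockdown columns of the table do not mark which siRNA was used and were taken as 1 arm of 6, so p-values measure the spread between electroporations of 1 line and any difference between the siRNAs. The labels name no batch.

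Zfp407 itself stood at 2.83 ± 0.178 FPKM in control and 1.79 ± 0.208 FPKM in knockdown libraries (n = 6, SD), with no overlap, and its mean fell by 36.9%. The adipocyte markers were strongly expressed, and the list of 11 genes summed to 16741 to 20564 FPKM per control library and to 14906 to 19585 FPKM per knockdown library. The 7 preadipocyte markers summed to 1352 to 1726 FPKM per control library and to 1412 to 1797 FPKM per knockdown library. Macrophage and endothelial marker lists stayed at or below 1.15 FPKM in every library, and of the brown fat markers Ucp1, Prdm16, Dio2 and Elovl3 had means below 0.1 FPKM. In the knockdown arm 5 of the 11 adipocyte markers were lower, beside 22.4% of all tested rows, and 1, Cebpa, was higher, beside 11.4% of all rows. Lep, the leptin gene, was the 1 marker past a minimum fold of 1.2 and fell from 9.80 ± 0.993 to 4.61 ± 1.12 FPKM (n = 6, SD; log2 fold change -0.96, limma adjusted p = 1.2e-04). None of the 6 tested preadipocyte markers was called, and the part of these marker changes in the transporter results was not tested. In bulk RNA, fewer cells of a type and less RNA per cell cannot be told apart. Absolute depth is unknown, since FPKM holds no read totals, but the relative depths read from low rows ran from 0.88 to 1.15 of that of control library 1.

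Of the 60 transporter genes, 28 had a mean at or below 0.1 FPKM and 3 of these, Slc1a6, Slc6a11 and Slc6a13, are listed at 0 in all libraries. The gap at the floor was wide, with Slc7a11 just inside it at 0.518 FPKM and Slc6a2, a noradrenaline transporter, just outside it at 0.266 FPKM. Both arm means of each tested gene were at least 0.512 FPKM, so none entered the test through 1 arm alone. Slc7a10, the alanine-serine-cysteine exchanger used elsewhere as a surface marker of white fat cells, is listed at 0 in 4 of 6 control and all 6 knockdown libraries and reached 0.0943 FPKM at most. Slc7a8, the light chain LAT2, and Slc38a1, a neutral amino acid transporter of many growing cells, were also below the floor, with means of 0.0394 and 0.0817 FPKM. Of the Slc6a family 16 of 19 rows were not tested. All 3 Slc43a rows were tested. In the other families, 3 of 7 Slc1a, 1 of 2 Slc3a, 6 of 14 Slc7a, 3 of 4 Slc36a and 6 of 11 Slc38a rows were tested. Slc7a5, the light chain LAT1, is not analysed here.

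FPKM is scaled to transcript length, so levels can be set side by side between genes. Expression was concentrated in a few carriers: Slc1a5 and Slc1a3 together held 35.7% of the summed control mean of 646 FPKM over the 25 tested genes, and 14 genes had a mean of at least 10 FPKM. In order of their mean over all libraries, Slc1a5, Slc1a3, Slc3a2, Slc6a6, Slc38a6 and Slc38a10 stood highest, as the plot of library levels shows. The summed level of the tested genes was 646 ± 9.59 FPKM in control and 577 ± 49.5 FPKM in knockdown libraries (n = 6, SD), and knockdown library 4 at 660.5 FPKM lay inside the control range of 637 to 663 FPKM.

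**Figure D1:**
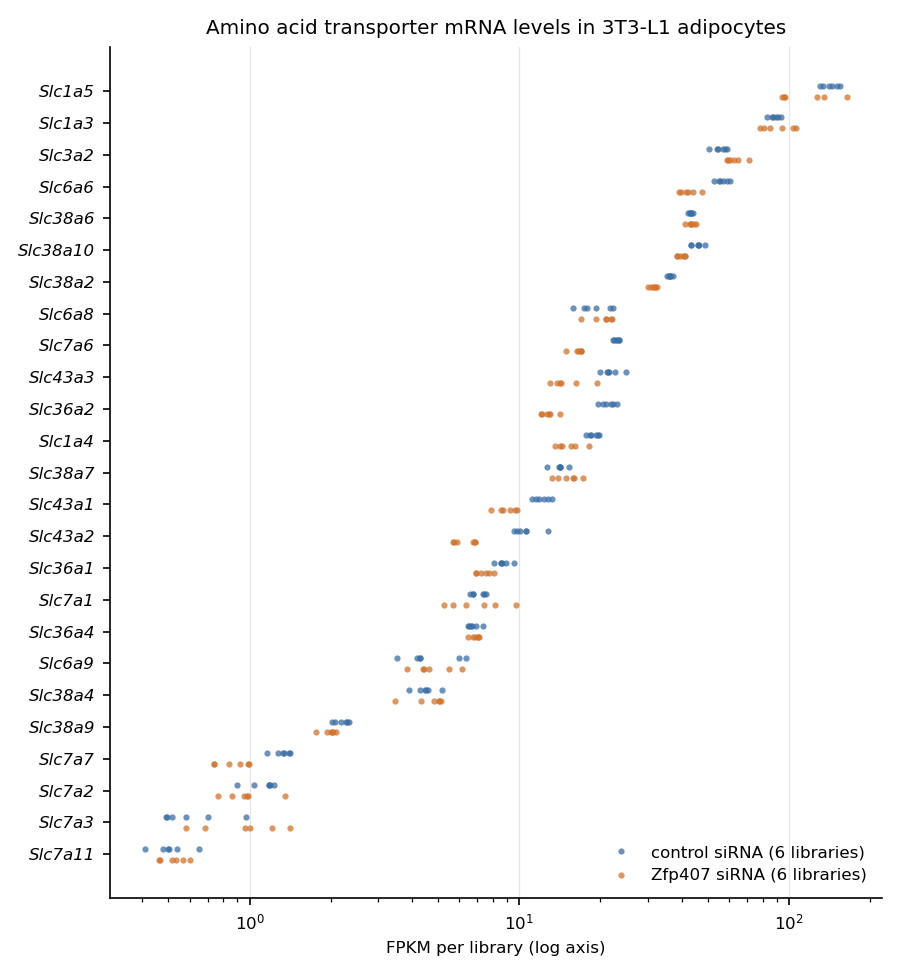
FPKM of the 25 tested amino acid transporter genes on a log axis, 1 point per library, with control siRNA above and Zfp407 siRNA below on each line. Slc1a5 lies highest, between 94.4 and 164 FPKM over all libraries, and Slc7a11 lowest, between 0.409 and 0.648 FPKM.

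In the comparison of the 6 knockdown with the 6 control libraries, 11 of the 25 tested transporters fell, 1 rose and 13 did not pass the test (limma on log2(FPKM + 1), Benjamini-Hochberg adjusted p under 0.05 over all 17169 rows). Members called came to 48%, while 33.7% of all rows were called, and members called lower came to 44%, against 22.4% of all rows. Rows called higher were 11.4% of all rows. In such shares, all rows means the 17169 rows tested. The median log2 fold change was -0.10 over the tested transporters and -0.04 over all rows. The arms did not overlap in 11 transporters, 10 of them lower and 1 higher in the knockdown arm, against 18% of all rows. Each of these 11 gave p = 0.00216 in the exact two-sided permutation test over libraries, the smallest that divisions of 12 libraries into 6 and 6 can give. Any gene whose arms do not overlap gives this value, so it adds nothing to the lack of overlap. Against a minimum fold of 1.2, 3 transporters remained called, Slc36a2, Slc43a2 and Slc7a6, which is 12% of those tested beside 5.34% of all rows. The minimum fold was applied on the log2(FPKM + 1) scale, which understates changes of low genes such as Slc7a7. The deposited values may also hold a term shared by a whole arm. In low rows the worth of 1 read differed between the arms in 185 of 769 rows, by a median of 0.153 on the log2 scale (higher in the knockdown arm in 114 and lower in 71), while it differed between odd- and even-numbered libraries in 5 of 157 rows for control and 4 of 184 rows for knockdown. The called changes of Slc38a2, Slc38a10, Slc36a1 and Slc3a2 were little larger than this median, and the part of such a term in them was not tested.

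**Figure D2:**
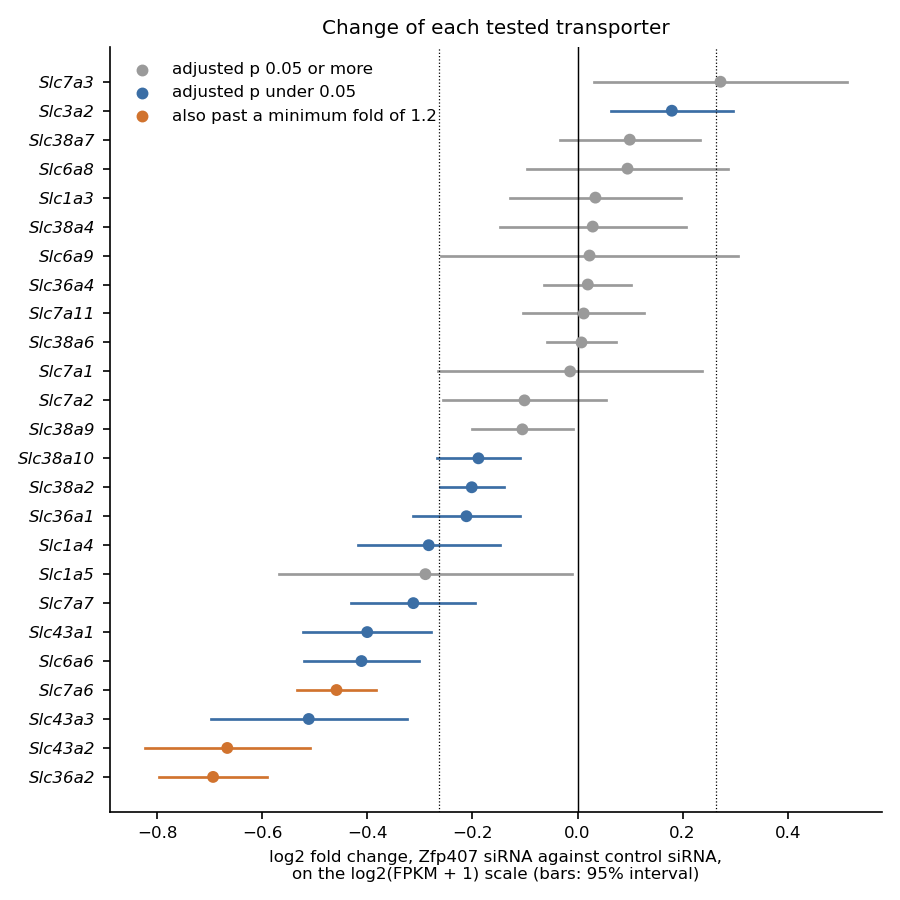
Log2 fold change of each tested transporter, Zfp407 siRNA against control siRNA, on the log2(FPKM + 1) scale, with 95% intervals and dotted lines at a fold of 1.2 in each direction. Estimates run from -0.69 for Slc36a2 to 0.27 for Slc7a3, and the 3 genes past the minimum fold are Slc36a2, Slc43a2 and Slc7a6.

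The Slc43a family was the only one of those with more than 1 tested gene in which every tested gene passed the test. All 3 were lower, beside 22.4% of all tested rows, and the family count was not tested. LAT3 and LAT4, encoded by Slc43a1 and Slc43a2, carry large neutral amino acids such as leucine by facilitated diffusion, while the product of Slc43a3 is known as a purine nucleobase carrier. Slc43a2 (chromosome 11, 75531694 to 75577575 on GRCm38) ranged from 9.53 to 12.8 FPKM with a median of 10.3 in control libraries, and from 5.68 to 6.88 with a median of 6.29 in knockdown libraries. The arms lay well apart, and the mean fell by 40.6% (log2 fold change -0.67, SE 0.07, limma adjusted p = 2.8e-05). Slc43a3 (chromosome 2, 84936579 to 84958510) ranged from 19.9 to 24.9 FPKM in control libraries, median 21.4, and from 13.03 to 19.4 in knockdown libraries, median 14.3. Knockdown library 4 stood highest of its arm, just under the lowest control library, and the other knockdown libraries were at or below 16.2 FPKM (log2 fold change -0.51, SE 0.09, limma adjusted p = 7.0e-04). Slc43a1 (chromosome 2, 84838850 to 84863594), on the same chromosome as Slc43a3 and upstream of it in coordinates, ranged from 11.2 to 13.2 FPKM, median 12.1, in control and from 7.87 to 9.84, median 8.97, in knockdown libraries. Its mean fell by 26.2% (log2 fold change -0.40, SE 0.06, limma adjusted p = 2.1e-04). Neither Slc43a1 nor Slc43a3 passed against the minimum fold (adjusted p = 0.189 and 0.10), and the authors' deposited table gives log2 fold changes of -0.46, -0.69 and -0.59 for Slc43a1, Slc43a2 and Slc43a3, with q-values of 0.437 for Slc43a1 and 0.99999 for the other 2.

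The 250 bases upstream of the RefSeq starts of the 2 large neutral carriers are shown because these are the leucine carriers that fell together. They are given 5′ to 3′ on the coding strand, at chr11:75531444-75531693 (plus strand, first of its 2 listed starts) and chr2:84840073-84840322 (plus strand) in GRCm38.p6. The capitals mark the antioxidant response element core TGACNNNGC on either strand.

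Slc43a2: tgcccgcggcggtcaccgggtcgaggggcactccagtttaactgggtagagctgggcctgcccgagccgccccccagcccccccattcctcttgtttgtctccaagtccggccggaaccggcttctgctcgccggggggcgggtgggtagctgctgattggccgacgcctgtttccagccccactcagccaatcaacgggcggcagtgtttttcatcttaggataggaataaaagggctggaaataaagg

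Slc43a1: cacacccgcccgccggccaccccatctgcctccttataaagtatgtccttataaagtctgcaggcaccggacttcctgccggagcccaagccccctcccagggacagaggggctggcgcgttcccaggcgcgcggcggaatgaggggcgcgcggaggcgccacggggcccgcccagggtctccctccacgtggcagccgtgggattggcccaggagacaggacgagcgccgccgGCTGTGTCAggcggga

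The G and C content of these stretches was 62.8% and 70.8%. The core was found in the Slc43a1 stretch and not in that of Slc43a2. On 1 strand or the other, 12.4% of all 32851 RefSeq windows of 300 bases (250 before to 50 after a start) hold it. Of the tested transporters with such windows, 6 of 18 genes hold it, in 8 of 29 windows, Slc43a1 among them. A match of letters describes the stretch and is no evidence of a bound site.

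Proton-coupled carriers of the Slc36a family were lower in 2 of 3 tested genes, beside 22.4% of all tested rows. The family count was not tested. Slc36a2 encodes PAT2, a carrier of small neutral amino acids such as glycine and proline that is used elsewhere as a surface marker of brown and beige fat cells. Slc36a2 (chromosome 11, 55158106 to 55185096) ranged from 19.6 to 22.97 FPKM, median 21.4, in control libraries and from 12.04 to 14.1 FPKM, median 12.8, in knockdown libraries. It had the smallest p of all tested transporters, and its mean fell by 39.98% (log2 fold change -0.69, SE 0.05, limma adjusted p = 5.7e-07; adjusted p = 4.5e-05 against the minimum fold). It was also the 1 transporter marked significant in the authors' deposited table, where its log2 fold change is -0.74 and its q-value 0.00399. The brown fat marker Cidea went the other way, from 0.604 to 1.18 FPKM (log2 fold change 0.44, limma adjusted p = 0.00247), and Ppargc1a was not called (log2 fold change -0.02).

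Slc36a1 (chromosome 11, 55204350 to 55236330), the next family member along the chromosome, encodes the lysosomal and plasma membrane carrier PAT1. Its level ran from 8.06 to 9.54 FPKM, median 8.57, in control and from 6.899 to 8.03 FPKM, median 7.35, in knockdown libraries, so the arms met without overlapping. The change was small (log2 fold change -0.21, SE 0.05, limma adjusted p = 0.00429). Slc36a4, which encodes the proton-coupled carrier PAT4, had a mean of 6.76 ± 0.338 FPKM in control and 6.86 ± 0.247 FPKM in knockdown libraries and was not called, with a 95% interval of the log2 fold change from -0.06 to 0.10. Slc36a3 was below the floor, at 0.0502 FPKM.

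The heteromeric carriers pair a heavy chain with a light chain that does the transport. Slc3a2, which encodes the heavy chain 4F2hc, was the 1 transporter that rose, while its partners Slc7a6 and Slc7a7, the light chains y+LAT2 and y+LAT1 that exchange cationic for neutral amino acids, fell. Slc3a2 (chromosome 19, 8706882 to 8726471) ranged from 50.4 to 58.96 FPKM, median 55.7, in control libraries and from 59.004 to 71.3 FPKM, median 61.7, in knockdown libraries. The highest control library lay just under the lowest knockdown library, and the rise in the mean was 13.6% (log2 fold change 0.18, SE 0.05, limma adjusted p = 0.0209; adjusted p = 1 against the minimum fold). The table gives the same locus to 8 rows with small nucleolar RNA names, of which 2 were called higher and none lower. SNORD29 stood at 498 ± 204 FPKM in control and 943 ± 207 FPKM in knockdown libraries, and SNORD31 at 0.903 ± 0.680 and 649 ± 398 FPKM (n = 6, SD). Their part in the Slc3a2 value was not tested.

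Slc7a6 lies in a locus (chromosome 8, 106168811 to 106337988) that the table also gives to 4 other rows, of which Slc7a6os and Prmt7 were above the floor. The level of Slc7a6 ran from 22.3 to 23.4 FPKM, median 23.01, in control libraries and from 14.96 to 16.98 FPKM, median 16.7, in knockdown libraries. The mean fell by 28.4% (log2 fold change -0.46, SE 0.03, limma adjusted p = 1.6e-06; adjusted p = 0.00238 against the minimum fold). Slc7a6os, listed at the same locus and not a member, went from 18.4 ± 0.577 to 23.7 ± 0.777 FPKM (n = 6, SD; log2 fold change 0.35, limma adjusted p = 8.4e-06). The sources used here do not say whether the libraries keep strand, so reads of overlapping genes on opposite strands cannot be told apart, and the division of reads between these rows was not tested. Prmt7 was not called (log2 fold change -0.16, limma adjusted p = 0.150).

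Slc7a7 (chromosome 14, 54360841 to 54411636) was low throughout. It ranged from 1.16 to 1.42 FPKM, median 1.33, in control and from 0.736 to 0.997 FPKM, median 0.882, in knockdown libraries, with no overlap (log2 fold change -0.31, SE 0.05, limma adjusted p = 9.2e-04). Because 1 is added before the logarithm, this understates the change: the mean FPKM fell by 34.1%, and with 0.1 added the log2 fold change was -0.56. Its locus is shared with Oxa1l, which was not called (log2 fold change 0.08).

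Slc7a11, the light chain xCT that takes up cystine in exchange for glutamate, was the lowest tested gene and was not called. It ranged from 0.409 to 0.648 FPKM, median 0.501, in control libraries and from 0.462 to 0.603 FPKM, median 0.523, in knockdown libraries. The ranges overlapped almost fully (log2 fold change 0.01, 95% interval -0.10 to 0.13). Set against the summed level of the 3 tested light chains Slc7a6, Slc7a7 and Slc7a11, the heavy chain stood at a ratio of 2.24 ± 0.164 in control and 3.54 ± 0.366 in knockdown libraries (n = 6, SD), with 1.99 to 2.43 in the first and 3.19 to 4.07 in the second. This ratio leaves out the light chain Slc7a5. Most of the light chain sum is Slc7a6, with control means of 22.9 FPKM beside 1.32 for Slc7a7 and 0.512 for Slc7a11. The ratio therefore follows from the changes of Slc3a2 and Slc7a6 given above and is no separate result.

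**Figure D3:**
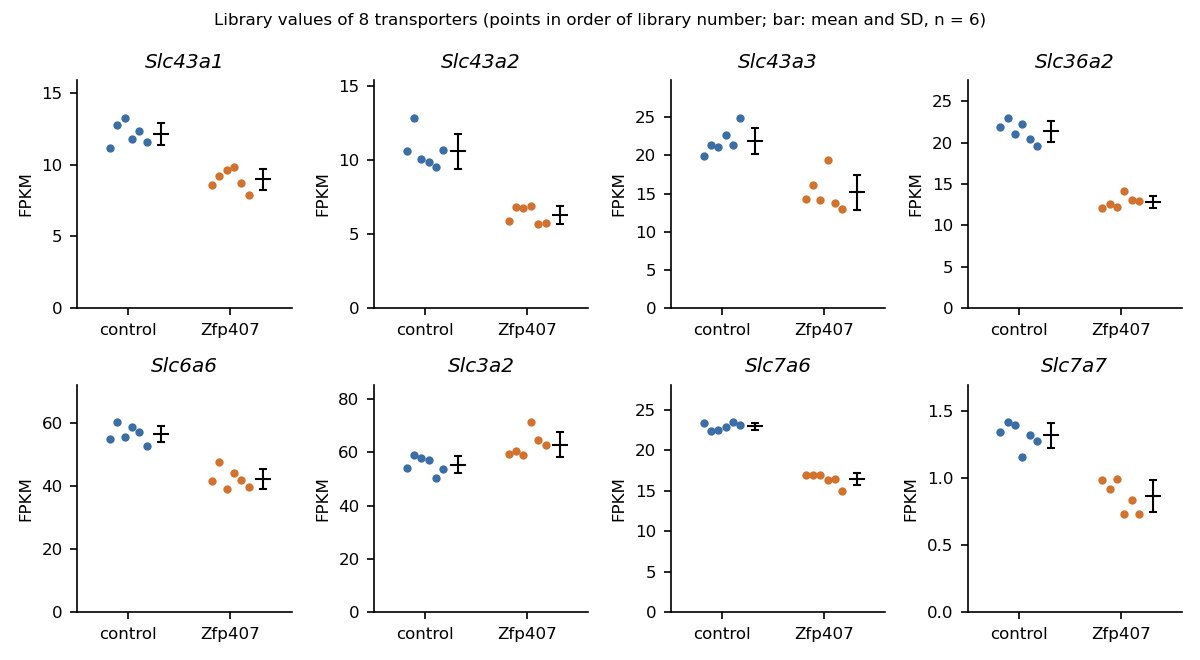
FPKM of 8 transporters by library on axes that start at 0, with the mean and SD of each arm (n = 6). Slc3a2 is the 1 panel where the knockdown libraries stand above the control libraries, from 59.004 to 71.3 FPKM, and in the other 7 panels they stand below.

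ATF4, the transcription factor of the amino acid response, is known to act on several of these genes through the C/EBP-ATF response element TGATGNAA. Of the 25 tested transporters 18 had a RefSeq promoter window, in 29 windows. The element was on 1 strand or the other in 4 of the 29 windows, which belong to 3 genes, Slc7a11, Slc1a4 and Slc7a7. The element is in 3.97% of all 32851 windows. The sites are shown because Slc1a4 and Slc7a7 fell and Slc7a11 did not pass the test, and the difference between these genes was not tested. Each line gives 30 bases 5′ to 3′ on the coding strand (all minus strand, GRCm38.p6), with the element or its reverse complement in capitals. Their positions are chr3:50443661-50443690 and chr3:50443642-50443671 for Slc7a11, chr11:20332699-20332728 for Slc1a4, and chr14:54417927-54417956 for the Slc7a7 site at 1 of its listed starts.

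Slc7a11, first base of the element at -66: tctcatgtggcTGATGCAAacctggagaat

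Slc7a11, first base of the element at -47: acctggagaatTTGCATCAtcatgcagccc

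Slc1a4, first base of the element at -4: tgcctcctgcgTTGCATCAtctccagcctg

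Slc7a7, first base of the element at -1: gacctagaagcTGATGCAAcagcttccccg

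The elements of Slc7a11 lie on opposite strands and close together, and that of Slc1a4 spans its start. The listed start of Slc7a7 used for the site shown lies beyond the end of the table's locus for that gene. A further element at -141 from that start is not shown. From another listed start of Slc7a7, the site shown lies at -243. No window was in hand for Slc1a5, Slc36a2, Slc43a3, Slc6a6, Slc6a8, Slc7a2 and Slc7a3.

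In the Slc1a family of exchangers and glutamate carriers, Slc1a5 and Slc1a3 held the highest levels and the widest spread in FPKM between knockdown libraries. Relative to its mean over these libraries, Slc7a3 varied more (32.1%, beside 23.7% for Slc1a5 and 12.8% for Slc1a3). Slc1a5 (chromosome 7, 16781346 to 16798301), which encodes the glutamine exchanger ASCT2, was the most abundant transporter. Its FPKM in control libraries 1 to 6 was 154, 151, 144, 130.1, 141 and 134, and in knockdown libraries 1 to 6 it was 96.8, 95.9, 94.4, 164, 134 and 127. Knockdown libraries 1, 2 and 3 lay far below every control library, knockdown library 4 above every control library, and the remaining knockdown libraries near the lower end of the controls. The mean difference of -16.6% did not pass (log2 fold change -0.29, 95% interval -0.57 to -0.01, limma adjusted p = 0.103; two-sided exact permutation test p = 0.0866). Without knockdown library 4 the log2 fold change was -0.39 with a limma adjusted p of 0.0116.

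Slc1a4 (chromosome 11, 20302180 to 20332713), the related neutral exchanger ASCT1, fell from 18.8 ± 0.829 to 15.3 ± 1.66 FPKM (n = 6, SD; log2 fold change -0.28, SE 0.06, limma adjusted p = 0.00399). Its arms overlapped through knockdown library 4 alone, at 18.1 FPKM beside a lowest control library of 17.7 FPKM. Slc1a3 (chromosome 15, 8634120 to 8710764), the glutamate and aspartate carrier GLAST, ranged from 83.01 to 93.5 FPKM, median 88.4, in control and from 78.2 to 105.7 FPKM, median 89.4, in knockdown libraries. Its knockdown libraries fell on both sides of the control range, 2 below and 3 above it, and it was not called (log2 fold change 0.03, 95% interval -0.13 to 0.20).

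Among the sodium-coupled neutral carriers of the Slc38a family, 2 of 6 tested genes fell by small amounts and 4 did not pass. This stands beside 22.4% of all tested rows called lower, and the family count was not tested. Slc38a2 (chromosome 15, 96687385 to 96699744), the SNAT2 carrier induced by amino acid shortage, ranged from 35.4 to 37.3 FPKM, median 36.1, in control and from 29.95 to 32.4 FPKM, median 31.6, in knockdown libraries. Its mean fell by 13.4%, and the narrow spread within each arm (1.68% and 2.78% of the mean) kept the arms apart (log2 fold change -0.20, SE 0.03, limma adjusted p = 2.1e-04). Slc38a10 (chromosome 11, 120103945 to 120152341) ranged from 43.2 to 48.7 FPKM, median 46.03, in control and from 38.4 to 41.2 FPKM, median 40.1, in knockdown libraries (log2 fold change -0.19, SE 0.04, limma adjusted p = 0.00183). Gm11769, at the same locus, also fell (log2 fold change -0.28, limma adjusted p = 4.0e-04). Neither Slc38a2 nor Slc38a10 passed against the minimum fold (adjusted p = 1 for both).

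Slc38a6 (chromosome 12, 73275551 to 73354049) had the steadiest level of the tested transporters over the control libraries. It ranged from 42.1 to 44.2 FPKM, median 43.2, in control and from 41.02 to 45.4 FPKM, median 43.3, in knockdown libraries, and the 95% interval of its log2 fold change ran from -0.06 to 0.07. Trmt5, a tRNA methyltransferase gene at the same locus, fell from 8.25 to 5.95 FPKM (log2 fold change -0.41, limma adjusted p = 1.5e-05). The lysosomal carriers Slc38a7 and Slc38a9, the second an arginine sensor of mTORC1, had log2 fold changes of 0.10 and -0.10 and were not called (limma adjusted p = 0.236 and 0.0872). Slc38a4, at 4.50 ± 0.408 and 4.63 ± 0.643 FPKM, was not called either.

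Of the Slc6a family, Slc6a6, the taurine transporter gene, fell and the other 2 tested genes did not pass, beside 22.4% of all tested rows called lower. Slc6a6 (chromosome 6, 91684067 to 91759066) ranged from 52.9 to 60.2 FPKM, median 56.3, in control and from 39.1 to 47.5 FPKM, median 41.9, in knockdown libraries, a clear separation. Its mean fell by 25.2% (log2 fold change -0.41, SE 0.05, limma adjusted p = 7.6e-05; adjusted p = 0.0951 against the minimum fold). The authors' deposited table gives it a log2 fold change of -0.42 and a q-value of 0.263. The creatine transporter gene Slc6a8, whose row the authors marked as failed, stood at 19.1 ± 2.53 and 20.4 ± 1.95 FPKM (log2 fold change 0.10, limma adjusted p = 0.436). Slc6a9, the glycine transporter GlyT1, stood at 4.76 ± 1.13 and 4.81 ± 0.837 FPKM and varied by 23.7% of its mean over the control libraries.

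None of the 3 tested cationic carriers passed, beside 33.7% of all tested rows called in either direction. Slc7a1, the main arginine and lysine carrier CAT1, averaged 7.04 ± 0.412 and 7.09 ± 1.68 FPKM (n = 6, SD), and its knockdown libraries ran from 5.27 to 9.76 FPKM around a control range of 6.56 to 7.52 FPKM. Slc7a2, another row marked as failed by the authors, averaged 1.12 and 0.983 FPKM. Slc7a3 averaged 0.626 ± 0.187 and 0.975 ± 0.313 FPKM, with 3 knockdown libraries above the highest control library. Its log2 fold change of 0.27 did not pass (limma adjusted p = 0.0775), but did without control library 4 (adjusted p = 0.0375) or without knockdown library 2 (adjusted p = 0.0307).

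**Figure D4:**
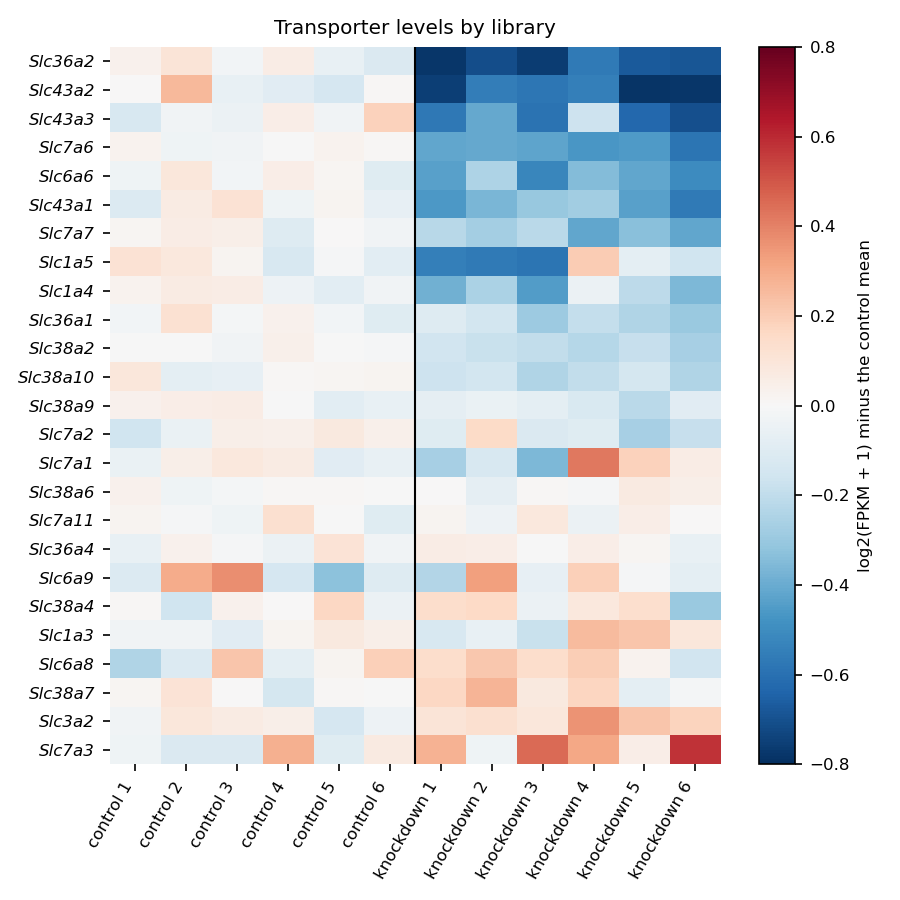
Log2(FPKM + 1) of the 25 tested transporters in each of the 12 libraries, minus the mean of the control libraries, ordered by fold change. The colour scale ends at -0.8 and 0.8. Slc36a2 and Slc43a2 are low in all 6 knockdown libraries, while Slc1a5 and Slc7a1 are low in knockdown libraries 1, 2 and 3 and not in knockdown library 4.

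Genes around the transporters were counted in lists chosen from general knowledge. They are read against all 17169 tested rows, of which 22.4% fell, 11.4% rose and 5.34% passed the minimum fold. The median log2 fold change of these rows was -0.04. Of 12 tested carriers of amino acids and peptides outside these families, 5 fell and 1 rose, with a median log2 fold change of -0.05, close to that of all rows. Slc25a44, the mitochondrial branched-chain amino acid carrier, fell from 26.4 ± 0.894 to 21.8 ± 1.47 FPKM (n = 6, SD; log2 fold change -0.26, limma adjusted p = 7.8e-04), and Slc25a15, the ornithine carrier, had a log2 fold change of -0.17 (limma adjusted p = 0.00159). Slc25a38, the mitochondrial glycine carrier, rose from 6.87 to 8.52 FPKM (log2 fold change 0.27, limma adjusted p = 0.00304). None of these passed against the minimum fold. Slc25a22, a mitochondrial glutamate carrier, fell from 171 ± 25.3 to 129 ± 14.9 FPKM (log2 fold change -0.39, limma adjusted p = 0.0133) and was added for its high level after its value was seen.

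Among 23 tested genes of ATF4 and its targets outside the transporter families, 6 fell, 2 rose and 15 did not pass, with a median log2 fold change of -0.04. These counts are near the 22.4% lower and 11.4% higher of all rows. Atf4 itself was not called (148 and 151 FPKM, log2 fold change 0.02) and neither was Asns, asparagine synthetase (log2 fold change 0.01), both named after their values were seen. Eif4ebp1, an inhibitor of translation initiation, fell from 536 to 386 FPKM (log2 fold change -0.48, limma adjusted p = 5.1e-04). The proline and serine pathway enzymes Pycr1 and Shmt2 fell too (log2 fold changes -0.50 and -0.34), as did Aldh18a1 (log2 fold change -0.50). Gdf15, a stress-induced hormone, rose from 0.665 to 1.15 FPKM (log2 fold change 0.37, limma adjusted p = 0.00576) and was named after its value was seen. None of the 23 passed against the minimum fold.

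In amino acid synthesis and interconversion 12 of 24 tested rows fell and 1 rose, beside 22.4% and 11.4% of all rows, with a median log2 fold change of -0.22. Pycrl, Psph and Asl, of proline, serine and arginine synthesis, all fell (log2 fold changes -0.30, -0.34 and -0.66), and only Asl of the 24 rows passed against the minimum fold (adjusted p = 0.0221). The rise was that of Glul, glutamine synthetase, from 120 ± 9.47 to 143 ± 10.02 FPKM (n = 6, SD; log2 fold change 0.26, limma adjusted p = 0.00698), named after its value was seen. Of the 25 tested genes of amino acid sensing upstream of mTORC1, 10 fell and 1 rose, beside 22.4% and 11.4% of all rows, with a median log2 fold change of -0.11. Hbxip, a subunit of the lysosomal Ragulator complex, had the lowest p of these (log2 fold change -1.58, limma adjusted p = 2.3e-08), and Flcn, folliculin, rose (log2 fold change 0.32, limma adjusted p = 6.1e-05).

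Branched-chain amino acid breakdown, which uses the leucine, isoleucine and valine that LAT carriers bring in, was lower in 16 of 20 tested genes, beside 22.4% of all rows, and higher in none, with a median log2 fold change of -0.43. Mccc2, of leucine breakdown, fell from 39.8 ± 0.981 to 25.6 ± 0.858 FPKM (n = 6, SD; log2 fold change -0.62, limma adjusted p = 3.6e-08). Bckdhb, a subunit of the branched-chain keto acid dehydrogenase, and Bckdk, the kinase that inhibits it, fell together (log2 fold changes -0.56 and -0.59, limma adjusted p = 3.4e-06 and 2.2e-06). Mut, methylmalonyl-CoA mutase, fell with a log2 fold change of -0.48 (limma adjusted p = 7.8e-06). Against the minimum fold 7 of the 20 genes passed, beside 5.34% of all rows. No test compared these lists with each other or with the transporters.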

How the data were processed

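RNA of 12 libraries had been sequenced by the submitters, who deposited 1 table with an FPKM value per gene and library. Beside these, the deposited table holds 1 FPKM per arm from the authors, their log2 fold change as a further column of values (other than per library) and their p-value and q-value. Per the submitters' processing notes, Cufflinks 2.0.2, SAMtools 0.1.18.0, TopHat2 2.0.5 and Bowtie2 2.0.0.7 were used, with no roles given. The sources used here give no genome build, annotation, strand setting or read totals.

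Of rows with a protein-coding symbol of GENCODE M21, 99.6% overlapped that gene on GRCm38. Positions are the table's, with 1 added to the start, which then equals the gene start in 44.4% of rows (1.31% without it). In 6 of the 25 tested transporters another row above the floor has the same locus, and whether these genes share reads was not tested.

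The members and all gene lists were chosen with earlier results of these data known. Rows with a mean of at least 0.5 FPKM over the 12 libraries were tested on the log2(FPKM + 1) scale by limma 3.58.1 (R 4.3.3; 2 groups, lmFit, then eBayes with an intensity trend, two-sided), with Benjamini-Hochberg adjustment over all 17169 rows and a threshold of 0.05. Fold changes are on that scale and understate changes of low genes. A test against a minimum fold of 1.2 used treat. The test was tried on simulated data with known changes, drawn independently for each row and library. These data held no term shared by a whole arm, so the trial says nothing about such a term. Rows with no gene name (3036) or several names (629) stayed in the fit. No sample columns were left out. No 2 libraries held identical values, the highest correlation within an arm being 0.984. Per library the FPKM summed to 2772930 to 3748490, and 32.8% of it was mitochondrial in knockdown library 6, beside 19.4% to 26.3% in the others.

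The worth of 1 read was taken, in rows with a mean below 0.5 FPKM, as the smallest value of which all values of an arm were whole multiples within 2%. Differences were counted from the most frequent one, and log2 differences of 0.5 or more were set aside.

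Genes with values for each arm were the called transporters whose arms do not overlap (at most 16 by p), the 6 of highest mean, and Slc3a2, Slc1a5, Slc7a10, Slc7a11, Slc38a2 and Slc36a2 whatever they did (the rule also names Slc7a5, which is not analysed here); of each list, at most 4 called genes by p. Promoter windows are RefSeq's, for GRCm38.p6. Alternatives were other pseudocounts, floors and scalings, no trend, failed rows left out, and each library left out.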

Additional observations from a re-analysis of the deposited data

Results flagged for a closer look

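In each arm of 6 libraries, the highest and the lowest library were compared with the rest for the 25 tested transporters, and 3 of 50 sets held a library whose gap to its nearest neighbour exceeded Dixon's 95% critical value. Chance gives about 1 in 20 such sets. Slc43a2 was 12.8 FPKM in control library 2, beside 9.53 to 10.6 FPKM in the other control libraries, a gap of 0.665 of the range. Slc7a2, a row that the authors marked as failed, was 1.35 FPKM in knockdown library 2, beside 0.765 to 0.984 FPKM in the other knockdown libraries. Slc7a6 was 14.96 FPKM in knockdown library 6, beside 16.3 to 16.98 FPKM in the others of that arm, and that library also had the highest mitochondrial share.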

How the results depend on the processing

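All 12 called transporters kept their direction under each of the alternatives run, and Slc36a2, Slc43a2 and Slc7a6 kept their call under all of them. Against a minimum fold of 1.2, 3 transporters were lower and 0 higher, beside 5.34% of all tested rows in either direction. At an unadjusted p under 0.05 in the ordinary limma test there were 15. The largest p of these 15 was that of Slc1a5, which ranked 7249 among all 17169 tested rows. A large part of all tested rows therefore passed that threshold too. With 1 library left out, 11 to 12 were called lower and 1 to 2 higher, the additions being Slc1a5 without knockdown library 4 and Slc7a3 without control library 4 or knockdown library 2. The other pseudocounts, floors and scalings gave 11 lower and 1 higher, except that a floor of 5 FPKM leaves Slc7a7 untested and gave 10 lower. Of transporters that were not called, several near 0 changed sign. Slc7a1 had log2 fold changes of 0.0086 with each library centred on its median and 0.0059 after quantile normalization, and from -0.10 to 0.054 with 1 library left out. After quantile normalization Slc7a11 stood at -0.032, and with 1 library left out it ran from -0.0082 to 0.037. Over the same omissions Slc38a6 ran from -0.0052 to 0.023, Slc1a3 from -0.010 to 0.076, Slc38a4 from -0.0030 to 0.094 and Slc6a9 from -0.043 to 0.098. The cause was not tested. No paired analysis was possible because the knockdown columns are numbered through their whole arm, while the labels number the samples anew for each siRNA, so that no label number can be tied to a knockdown column. Depth limits statements on the 35 genes below the floor, which were not tested.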

Other observations

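Among the transporters above 5 FPKM, Slc1a5 and Slc7a1, neither of them called, varied most over the knockdown libraries, by 23.7% of the mean for both, beside 6.55% and 5.85% over the control libraries. Slc7a1 stood at 5.67, 6.35, 5.27, 9.76, 8.14 and 7.37 FPKM in knockdown libraries 1 to 6, and Slc1a3 at 81.02, 84.7, 78.2, 105.7, 103.5 and 94.2 FPKM. As with Slc1a5, knockdown libraries 1, 2 and 3 were below the other 3 for both genes. Slc3a2, at 59.4, 60.7, 59.004, 71.3, 64.7 and 62.6 FPKM, and Slc36a2, at 12.04, 12.6, 12.2, 14.1, 13.03 and 12.9 FPKM, had the same order. Slc7a6 had the opposite one, at 16.9, 16.98, 16.9, 16.3, 16.4 and 14.96 FPKM, and Slc43a2 had neither, at 5.85, 6.84, 6.74, 6.88, 5.68 and 5.72 FPKM. Zfp407 itself had the opposite order too, at 2.13, 1.93, 1.79, 1.65, 1.604 and 1.62 FPKM in knockdown libraries 1 to 6. The table does not say which siRNA each library received, so these values were not set against the siRNAs or tested.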
